A study of Mus musculus with 36 samples.

Results

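The question addressed here was whether MBP29-hα-syn mice, labelled MSA, and control mice responded differently to PLX5622 with cortex, corpus callosum and striatum pooled in one model. The measurement is the genotype by diet interaction, the change with PLX5622 in MSA mice minus the change with PLX5622 in control mice, on a log2 scale. It used all 30 bulk brain libraries among the 36 libraries of the series. The other 6 are sorted microglia, which served only for expression levels.

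MBP29-hα-syn mice express human α-synuclein from the promoter of the myelin gene Mbp, so mainly in oligodendrocytes, and are used to model multiple system atrophy. The bulk control libraries carry the label CTRL, and the protocol names wild-type mice. All mice were male. PLX5622, an inhibitor of the receptor CSF1R, was given in chow at 1200 mg/kg from 4 weeks of age, and the regions were collected after 12 weeks; placebo mice received the standard AIN-76A chow and are labelled as untreated. Each cortex group held 3 libraries. In corpus callosum the control placebo group held 3 libraries and the other groups 2 each, and in striatum the MSA placebo group held 3 and the other groups 2 each. The sorted CD11b+CD45low microglia came from forebrains of mice 16 weeks old, with 3 libraries from mice labelled MBP29_het and grouped as control, and 3 from mice labelled MBP29_homo and grouped as MSA. The 2 control striatum libraries titled PLX carry a treatment tag of no treatment and were grouped by title. Which regions were taken from the same mouse is not stated in the labels, so the p-values measure the spread between these libraries only.

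Microglia are the resident macrophages of the brain parenchyma. Their survival depends on signalling through CSF1R, whose ligands are CSF1 and IL-34, and inhibitors of the receptor deplete them. Macrophages at the brain borders (meninges, vessels and choroid plexus) use the same receptor.

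A gene was called when its adjusted p in edgeR's quasi-likelihood test (Benjamini-Hochberg over all 16080 genes tested) was under 0.05. The interaction was called for 61 genes, of which 57 had a higher log2 change in MSA mice (0.354% of genes tested) and 4 a lower one (0.0249%). At an unadjusted p under 0.05 there were 2287 genes, or 14.2% of those tested. The 57 genes had a median interaction of 4.17 (range 0.81 to 6.91), against -0.01 over all genes tested. Most were microglial: 17 stood in the list of homeostatic microglial genes, and 52 had a level in sorted control microglia more than 10 times that in placebo bulk tissue, a ratio that 4.80% of all tested genes exceeded. In sorted control microglia their median level was 678 CPM, against 12.6 CPM over all genes tested; CPM is a gene's count scaled to 1000000 assigned counts of its library.

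Behind most of these calls stood a nearly complete loss of the transcripts in control mice on PLX5622 and a partial loss in MSA mice. PLX5622 in control mice was called lower for 53 of the 57 genes, where 1.37% of all tested genes were called lower and 0.0373% higher. Their median change there was -5.66. In MSA mice the median change was -1.62, with 38 genes called lower and 5 called higher, where the shares over all tested genes were 1.73% lower and 0.827% higher. The genotypes on placebo differed little for these genes: the median difference of MSA minus control was 0.18, none of the 57 was called higher (0.373% of all tested genes were) and 3 were called lower (0.267%). On PLX5622 the same difference had a median of 4.21, with 53 of the 57 called higher in MSA mice, against 0.871% of all tested genes called higher and 0.137% lower. These contrasts share libraries with the interaction and are its parts, not separate evidence for it. In bulk tissue, fewer cells of a type and less RNA per cell cannot be told apart.

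**Figure D1:**
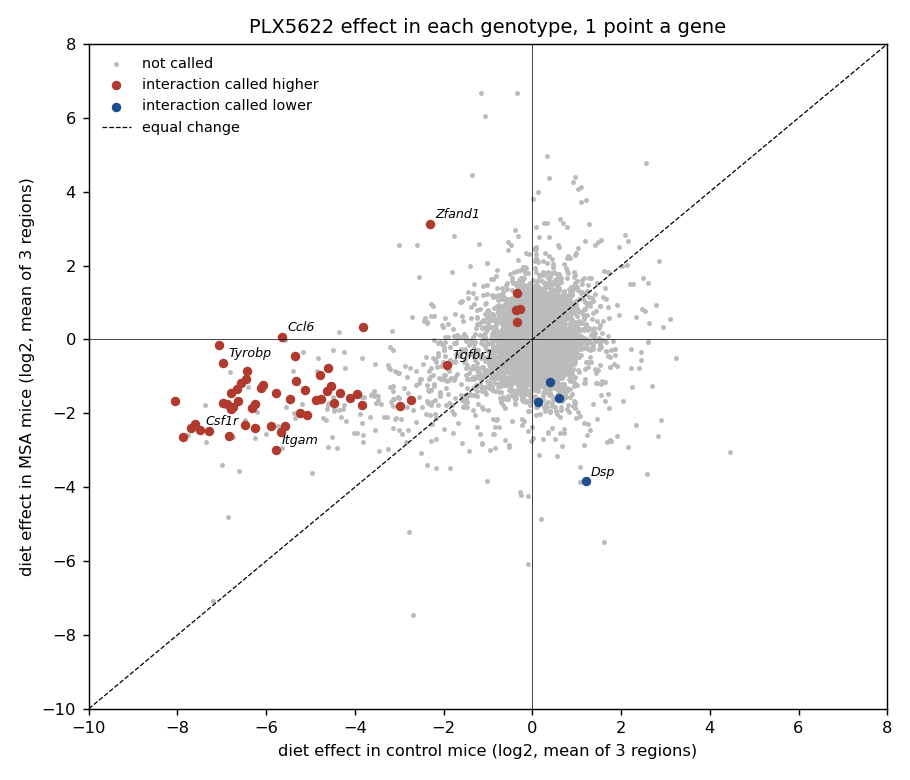
Log2 change with PLX5622 in control mice (x axis) and in MSA mice (y axis), 1 point for each of 16080 tested genes, as the mean of 3 regions. Most of the 57 genes called higher (red) lie far left and above the dashed line of equal change, the 4 called lower (blue) lie below it, and Zfand1 lies in the upper left quadrant.

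Counts assigned to genes ranged from 4360339 to 28622744 per bulk library, and 6 libraries had under 70% of their total in genes, 2 each of control placebo, control PLX5622 and MSA PLX5622.

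Csf1r, the receptor that PLX5622 blocks, showed the pattern library by library. In cortex its level was 107, 104 and 51.3 CPM in control placebo libraries and 0 CPM in each of the 3 control PLX5622 libraries. MSA cortex held 101, 112 and 166 CPM on placebo and 24.6, 18.8 and 25.7 CPM on PLX5622. In corpus callosum the control libraries had 104, 79.0 and 58.4 CPM on placebo and 1.44 and 0.70 CPM on PLX5622, while the MSA libraries had 175 and 123 CPM on placebo and 15.5 and 31.7 CPM on PLX5622. Placebo levels thus overlapped between the genotypes in cortex and not in corpus callosum, and on PLX5622 every MSA library lay above every control library of the same region.

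In striatum Csf1r stood at 94.3 and 107 CPM in control placebo libraries, at 0.73 and 0 CPM in control PLX5622 libraries, at 121, 140 and 136 CPM in MSA placebo libraries and at 13.1 and 38.9 CPM in MSA PLX5622 libraries. Placebo levels of Csf1r were thus higher in MSA mice without overlap in striatum as well, although Csf1r was not called for genotype on placebo. The mean left on PLX5622, relative to placebo of the same genotype, was 0%, 1.33% and 0.363% in control cortex, corpus callosum and striatum, and 18.2%, 15.9% and 19.7% in MSA mice. With a floor of 3 counts over the 3 libraries together, control cortex was at least 525-fold lower on PLX5622. The interaction was 5.04 ± 0.55 (SE; adjusted p = 4.36e-06). Csf1r fell in both genotypes, with log2 changes of -7.50 in control mice (adjusted p = 2.76e-11) and -2.46 in MSA mice (adjusted p = 9.89e-05).

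Among the other genes of the CSF and related receptor list, Csf3r, the receptor for granulocyte colony-stimulating factor, was the only further one called (3.26 ± 0.55, adjusted p = 0.00144), so 2 of 12 tested were called. The ligand genes gave interactions of -0.41 for Csf1 (adjusted p = 0.507) and 0.11 for Il34 (adjusted p = 0.734). Kit, Flt3, Pdgfra and Pdgfrb, which encode receptors of the same kinase family, gave values of -0.50, -0.28, -0.37 and -0.62, and none was called. The list's median interaction was -0.33.

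Cx3cr1, the fractalkine receptor of microglia (mm10 chr9:120048683-120068296, minus strand), had the smallest adjusted p. Its levels in control mice ran from 55.0 to 77.2 CPM on placebo (median 59.3, 8 libraries) and from 0 to 0.988 CPM on PLX5622 (median 0.459, 7 libraries). In MSA mice they ran from 64.9 to 121 CPM on placebo (median 94.9, 8 libraries) and from 12.4 to 19.9 CPM on PLX5622 (median 17.1, 7 libraries). The MSA PLX5622 libraries formed a narrow band, above all control PLX5622 libraries and below all placebo libraries. The interaction was 4.82 ± 0.39 (SE; adjusted p = 2.52e-08).

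The ADP receptor gene P2ry12 showed the same split on PLX5622. Control libraries held 30.4 to 92.1 CPM on placebo (median 50.2) and 0.104 to 1.06 CPM on PLX5622 (median 0.35), and MSA libraries 26.3 to 63.9 CPM (median 41.6) and 4.64 to 10.8 CPM (median 6.92). For Tmem119, a membrane protein used as a microglial marker, the PLX5622 libraries ranged from 0 to 0.917 CPM in control and from 4.48 to 12.5 CPM in MSA mice. Placebo levels of Tmem119 were 28.5 to 39.2 and 28.7 to 45.5 CPM. Interactions were 4.23 ± 0.36 for P2ry12 and 3.86 ± 0.33 for Tmem119 (adjusted p = 2.72e-08 for each), and 5.30 ± 0.59 for P2ry13, the neighbouring receptor gene on chromosome 3 (adjusted p = 2.59e-06).

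**Figure D2:**
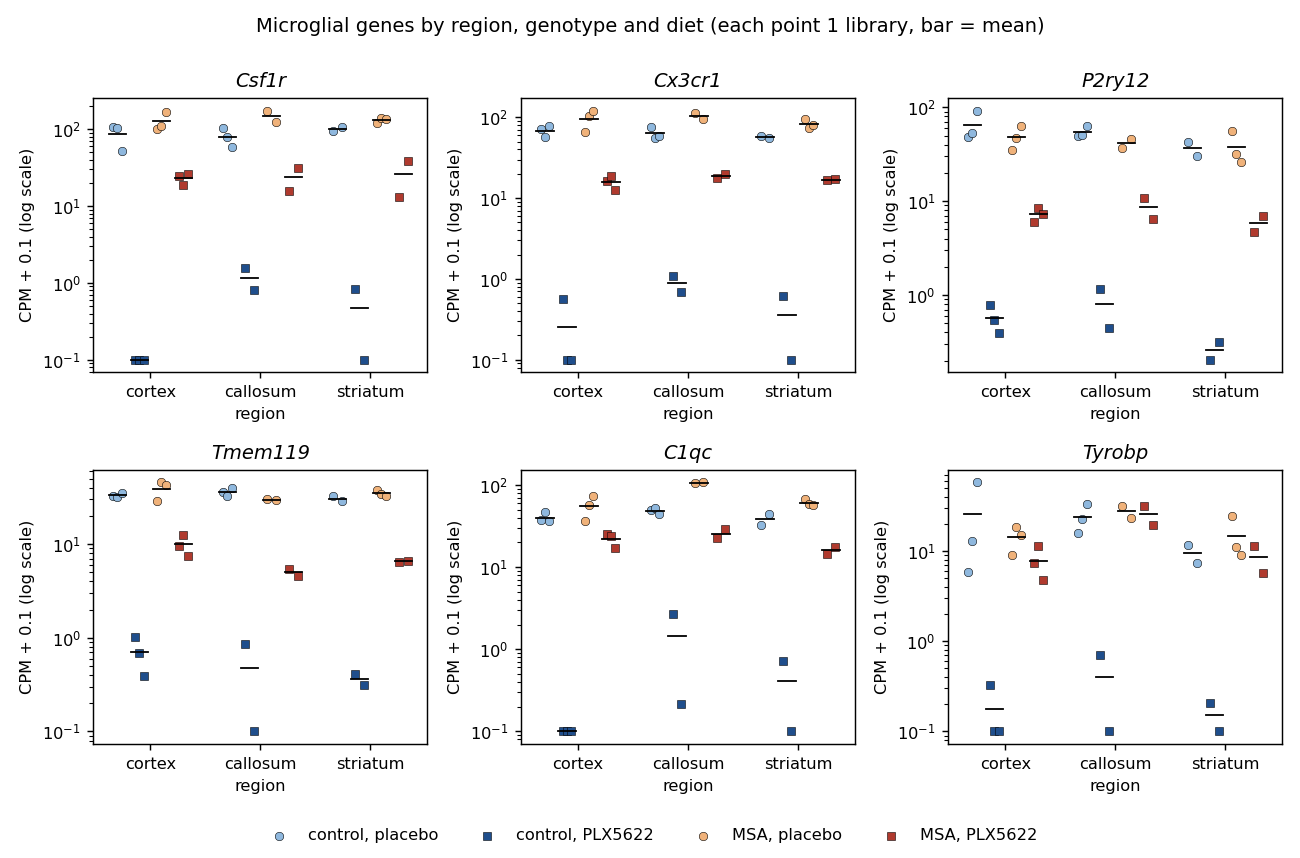
CPM plus 0.1 on a log axis for 6 microglial genes, by region, with 1 point per library and a bar at the group mean. Control PLX5622 libraries (dark blue squares) lie at or near the bottom of each panel and MSA PLX5622 libraries (red squares) lie above them in every region; for Tyrobp the red squares overlap the placebo libraries.

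The homeostatic microglial list held 26 tested genes with a median interaction of 3.37. All 26 had a negative diet value in both genotypes. In control mice 23 were called lower and in MSA mice 19. The list's median change was -5.72 in control and -1.79 in MSA mice. Besides those above, the called members included Siglech, Gpr34, Fcrls, Trem2, Tyrobp, Selplg, Laptm5, Itgam, Ctss, Bin2 and Cd33. Of these, Cd33 was called in only 11 of the 30 fits that left out 1 library each.

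Size varied among the called members. Fcrls, an Fc receptor-like gene of mouse microglia, had an interaction of 6.40 ± 0.79 and Tyrobp, the adaptor that carries signals of TREM2, one of 6.33 ± 0.76 (adjusted p = 1.16e-05 for each). Tyrobp kept 55.1%, 93.2% and 57.4% of its placebo mean in MSA cortex, corpus callosum and striatum, and its diet change in MSA mice was -0.64 (adjusted p = 0.328).

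Of the 9 list members that were not called, several had similar diet changes in both genotypes. Lpcat2, which encodes a lysophospholipid acyltransferase, fell in both, with changes of -2.30 in control and -2.75 in MSA mice (adjusted p = 1.00e-06 and 5.35e-07), with an interaction of -0.45 ± 0.37. Golm1 fell likewise, with changes of -1.22 and -0.88 (adjusted p = 0.000285 and 0.0184). Sall1, a transcription factor of microglial identity, was -0.87 in control mice (adjusted p = 0.0132) and -0.71 in MSA mice (adjusted p = 0.0502). Aif1, which encodes the microglial stain IBA1, was called in neither genotype: its diet change was -1.07 in control (adjusted p = 0.692) and -0.58 in MSA mice (adjusted p = 0.447). Its control libraries held 1.95 to 9.55 CPM on placebo and 0.456 to 5.09 CPM on PLX5622, which overlap. Lpcat2, Golm1 and Sall1 were singled out after their values were seen.

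Among 17 complement genes tested, 3 were called. C1qa, C1qb and C1qc encode the 3 chains of C1q, which starts the classical pathway, and lie side by side on the minus strand of mm10 chr4:136880145-136898844. Their interactions were 5.34 ± 0.59, 5.25 ± 0.54 and 4.51 ± 0.56 (adjusted p = 4.92e-06, 1.90e-06 and 2.47e-05). C1qc held 32.1 to 52.8 CPM in control placebo libraries and 0 to 2.58 CPM in control PLX5622 libraries, of which 3 in cortex and 1 in striatum had no counts. In MSA mice it held 36.4 to 108 CPM on placebo and 14.5 to 28.7 CPM on PLX5622. The highest MSA placebo values, 104 and 108 CPM, were the corpus callosum libraries.

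None of the other 14 complement genes tested was called. C3, the central component, had -2.48 (adjusted p = 0.326) and C4b -1.08 (adjusted p = 0.240). C4b was higher in MSA mice on placebo by 2.30 (adjusted p = 1.23e-05) and was also called higher with PLX5622 in control mice, by 1.39 (adjusted p = 0.00135).

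Receptors of the immune surface made up a further group. Of 17 Fc and Toll-type receptor genes tested, 6 were called higher (Ly86, Fcgr3, Fcer1g, Tlr13, Tlr7 and Fcgr2b), and the list's median was 2.22. Ly86, a partner of a Toll-like receptor homologue, had 5.58 ± 0.57 (adjusted p = 8.59e-07), Fcgr3, a low-affinity IgG receptor, 5.38 ± 0.70 (adjusted p = 3.29e-05) and Fcer1g, the shared Fc receptor γ chain, 4.91 ± 0.71 (adjusted p = 0.000121). The single-stranded RNA sensor Tlr7 had 3.82 ± 0.75 (adjusted p = 0.00984), although MSA PLX5622 libraries lay above control PLX5622 libraries without overlap in only 1 region. Of the 6, Fcgr2b was called in 7 of the 30 fits that left out 1 library each and in 4 of 12 other settings, and Tlr13 in all 30 and in 5 of 12. Among integrins and adhesion genes, 3 of 14 were called: Was at 5.29 ± 1.00, Dock2 at 3.22 ± 0.72 and Itgb2, the β2 integrin chain, at 2.54 ± 0.57. Was had no counts in any control PLX5622 library, and its fitted value depends on the prior count of the fit. Dock2 was called in 14 and Itgb2 in 11 of the 30 leave-one-out fits, and both lost the call with the replicate number as a block; Was stayed called in all 30 and with that block, and lost the call in limma voom and in each fit that left out a region.

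Transcription factors and signalling genes gave single calls. Spi1, which encodes the myeloid factor PU.1, was called at 5.23 ± 0.84 (adjusted p = 0.000637). It had 1 count over all 7 control PLX5622 libraries, and its MSA PLX5622 libraries ran from 0 to 4.68 CPM, with the 0 in striatum. Its call held in all 30 leave-one-out fits and in 9 of 12 other settings. The call was lost in limma voom, with and without the random block, and when cortex was left out. The other 9 factors tested were not called. Irf8, another myeloid factor, fell in both genotypes, with changes of -2.21 and -1.22 and an interaction of 0.99 (adjusted p = 0.235). Vav1, an exchange factor downstream of such receptors, was the only call among 11 genes of the purinergic and ITAM signalling list, at 4.79 ± 0.66 (adjusted p = 5.98e-05). That list did not hold P2ry12, P2ry13, Tyrobp, Trem2 and Fcer1g, which were called as well. Ncf1, a subunit of the phagocyte oxidase, was the only call among 5 genes of that complex (2.88 ± 0.55, adjusted p = 0.00612). Tgfbr1, the type I receptor for TGF-β, had a small value of 1.24 ± 0.24 (adjusted p = 0.00798), and it kept 701 counts over the control PLX5622 libraries.

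Because members include the gene of PU.1 and genes that moved together, the 250 bases before the annotated start and 50 bases after it were searched for the motif GAGGAAGT, a PU.1-type sequence, and its reverse complement ACTTCCTC. RefSeq promoters (GRCm38.p6) matched 42 of the 57 genes by symbol. The motif stood in 5 of them, or 11.9%, against 3.32% of the 12342 tested genes with a promoter and 3.69% of all 27025 genes in the RefSeq promoter set. The 5 genes were Cd53, Ctss, C1qc, Vav1 and Cyth4. A match is a description of the letters, not evidence of binding. The 250 upstream bases of C1qc (chr4:136892915-136893164, minus strand) and of Vav1 (chr17:57278850-57279099, plus strand) are shown because the motif lies within them, far from the start in one and close to it in the other. Capitals mark the motif, which begins 195 bases before the start in C1qc, on the opposite strand, and 11 bases before it in Vav1, on the same strand.
C1qc: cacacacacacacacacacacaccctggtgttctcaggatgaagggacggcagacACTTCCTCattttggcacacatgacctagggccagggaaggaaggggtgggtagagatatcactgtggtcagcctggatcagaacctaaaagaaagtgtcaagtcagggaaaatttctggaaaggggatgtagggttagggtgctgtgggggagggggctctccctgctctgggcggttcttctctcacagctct
Vav1: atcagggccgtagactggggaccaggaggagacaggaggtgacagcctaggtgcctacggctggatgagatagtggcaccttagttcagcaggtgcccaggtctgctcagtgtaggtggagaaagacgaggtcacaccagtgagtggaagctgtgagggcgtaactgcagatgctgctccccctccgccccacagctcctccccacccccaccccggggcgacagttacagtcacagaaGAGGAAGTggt

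Over the 52 called genes rich in sorted microglia, the share of the placebo mean that was left on PLX5622 was similar between regions within a genotype. In control mice the median over genes was 1.20% in cortex, 1.84% in corpus callosum and 0.803% in striatum. In MSA mice it was 35.8%, 37.3% and 28.8%. In control cortex 18 of these genes had no counts on PLX5622, in control corpus callosum 5 and in control striatum 15, and none had no counts in an MSA region. Between the lower and upper quartile, genes kept 26.0% to 43.4% in MSA cortex, 25.1% to 47.3% in MSA corpus callosum and 19.9% to 41.8% in MSA striatum. Diet was called lower for all 52 in control mice and for 38 in MSA mice. The 52 genes were chosen by the interaction in these same libraries, which largely fixes a wide gap between the genotypes. The homeostatic list was not filtered by the interaction. Its median log2 change with PLX5622 was -5.72 in control and -1.79 in MSA mice, against -5.84 and -1.65 over the 52 genes. Its summed level is a different measure, in which abundant genes weigh most, and showed a smaller gap. In cortex, corpus callosum and striatum the sum kept 20.9%, 28.1% and 22.6% in control mice, and 39.0%, 36.5% and 36.1% in MSA mice.

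All 57 genes called higher had a positive interaction in each of the 3 regions when the regions were fitted apart, and all 4 called lower had a negative one. The genes were chosen by the common value over these same libraries, which largely fixes such agreement in sign and the overlap counts given here. Medians over the 57 were 4.49 in cortex, 3.61 in corpus callosum and 4.81 in striatum. The test of whether the interaction differed between regions called 0 of 16080 genes (0%) with edgeR and 0 with DESeq2, and found 286 and 401 genes at an unadjusted p under 0.05. With edgeR this was 1.78% of the genes tested, a smaller share than the threshold of 0.05 itself. With few libraries per group, the absence of calls does not show that the regions agreed. Csf1r had 10.2 ± 1.28 in cortex, 3.40 ± 0.77 in corpus callosum and 5.67 ± 0.87 in striatum, where the cortex value rests on 3 control libraries with no counts and so on the prior count of the fit. For Tmem119, which kept counts in 6 of 7 control PLX5622 libraries, the regional values were 3.79 ± 0.54, 3.61 ± 0.61 and 4.31 ± 0.66. MSA PLX5622 libraries lay above control PLX5622 libraries without overlap in all 3 regions for 46 of the 57 genes, where 0.84% of all tested genes did so. For 8 genes this held in 2 regions, for 2 genes in 1 region and for 1 gene in none.

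**Figure D3:**
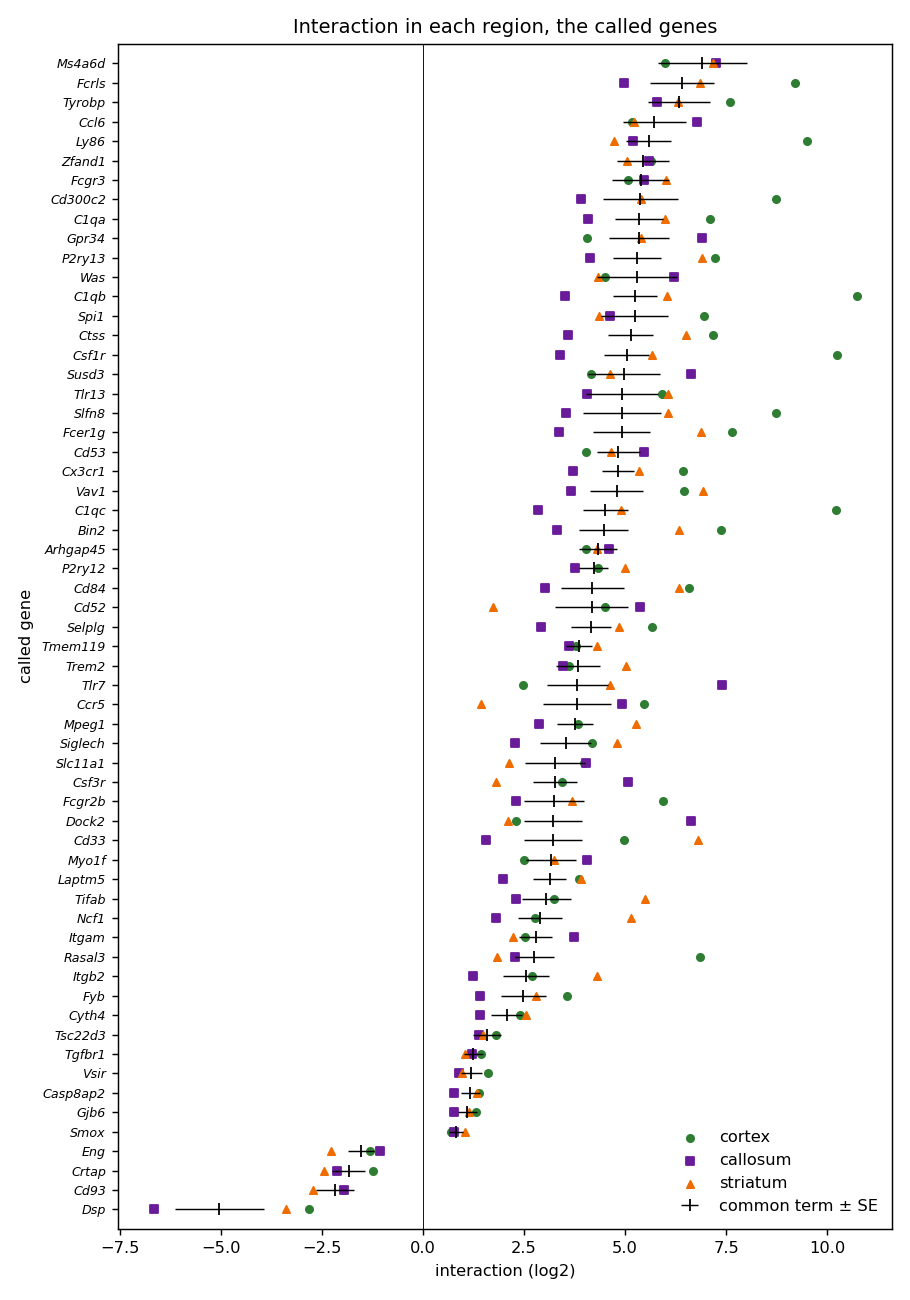
Interaction on the log2 scale for 60 of the 61 called genes, fitted apart in cortex, corpus callosum and striatum (coloured symbols), with the common value and its SE in black. All symbols of the 56 upper genes lie right of 0 and all of the 4 lower genes lie left of it; symbols far to the right are genes with no or few counts in a control PLX5622 group.

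Macrophages of the brain borders did not share the call. None of the 9 genes tested from the border macrophage list was called, and their median interaction was 0.37. With PLX5622, 3 of the 9 were called lower in control mice and 4 in MSA mice. Mrc1, the mannose receptor CD206, was found in every placebo library, at 0.957 to 4.16 CPM in control and 0.81 to 6.14 CPM in MSA mice. It had no counts in any of the 7 control or 7 MSA libraries on PLX5622. With a floor of 3 counts over the libraries of each group together this is at least 20.5-fold lower in control cortex and at least 22.5-fold lower in MSA cortex, and at least 8.52-fold and 4.94-fold lower in control and MSA striatum. Stab1, a scavenger receptor, changed by -2.81 in control and -2.44 in MSA mice (adjusted p = 1.16e-05 and 0.0003), and F13a1, a coagulation factor chain of macrophages, by -6.86 and -4.80 (adjusted p = 0.000381 and 0.00347). Cd163 was -0.24 and -0.05 and was called in neither. A p that misses the threshold does not show that the genotypes responded alike. Stab1 and F13a1 were singled out after their values were seen.

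Genes linked to activated microglia were called in 2 of 23 cases, against 17 of 26 in the homeostatic list. The 2 were the chemokine Ccl6 (5.72 ± 0.78, adjusted p = 5.34e-05) and Cd52 (4.17 ± 0.90, adjusted p = 0.0288), which stayed called in 21 of 30 leave-one-out fits and 5 of 12 other settings. Ccl6 was 1.53 to 7.06 CPM in MSA PLX5622 libraries and 0.675 to 4.57 CPM in MSA placebo libraries, which overlap. Its diet change in MSA mice was 0.08 (adjusted p = 0.936), and in control mice it was -5.65. Many members of that list, such as Apoe (-0.13) and Ctsd (-0.12), are also expressed by other brain cells. The 2 shares of called genes therefore do not compare states of microglia. The median interaction of the list of activated microglia was 0.17.

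Antigen presentation gave no call. None of 8 MHC class II genes was called (median -0.29), and none of 10 class I genes (median -0.18). H2-Aa, H2-Ab1 and Cd74 were higher in MSA mice on placebo, by 2.89, 2.19 and 2.27 (adjusted p = 0.0138, 0.018 and 0.0122), and fell with PLX5622 in MSA mice, with changes of -2.15, -1.77 and -2.69 (adjusted p = 0.0422, 0.0374 and 0.00347). Interactions of these genes were -1.36, -1.90 and -0.53, and not called. None of 19 interferon response genes was called for any of the contrasts above. Of 11 genes listed for monocytes and neutrophils only 2 passed the filter on low counts: S100a9 at 5.16 (adjusted p = 0.0535) and S100a8 at 2.63 (adjusted p = 0.356). With PLX5622 in MSA mice 1 of these 2 was called higher, where 0.827% of all tested genes were. S100a9 was at most 3.04 CPM in any bulk library, and only 1 of 13 listed lymphocyte genes was tested.

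**Figure D4:**
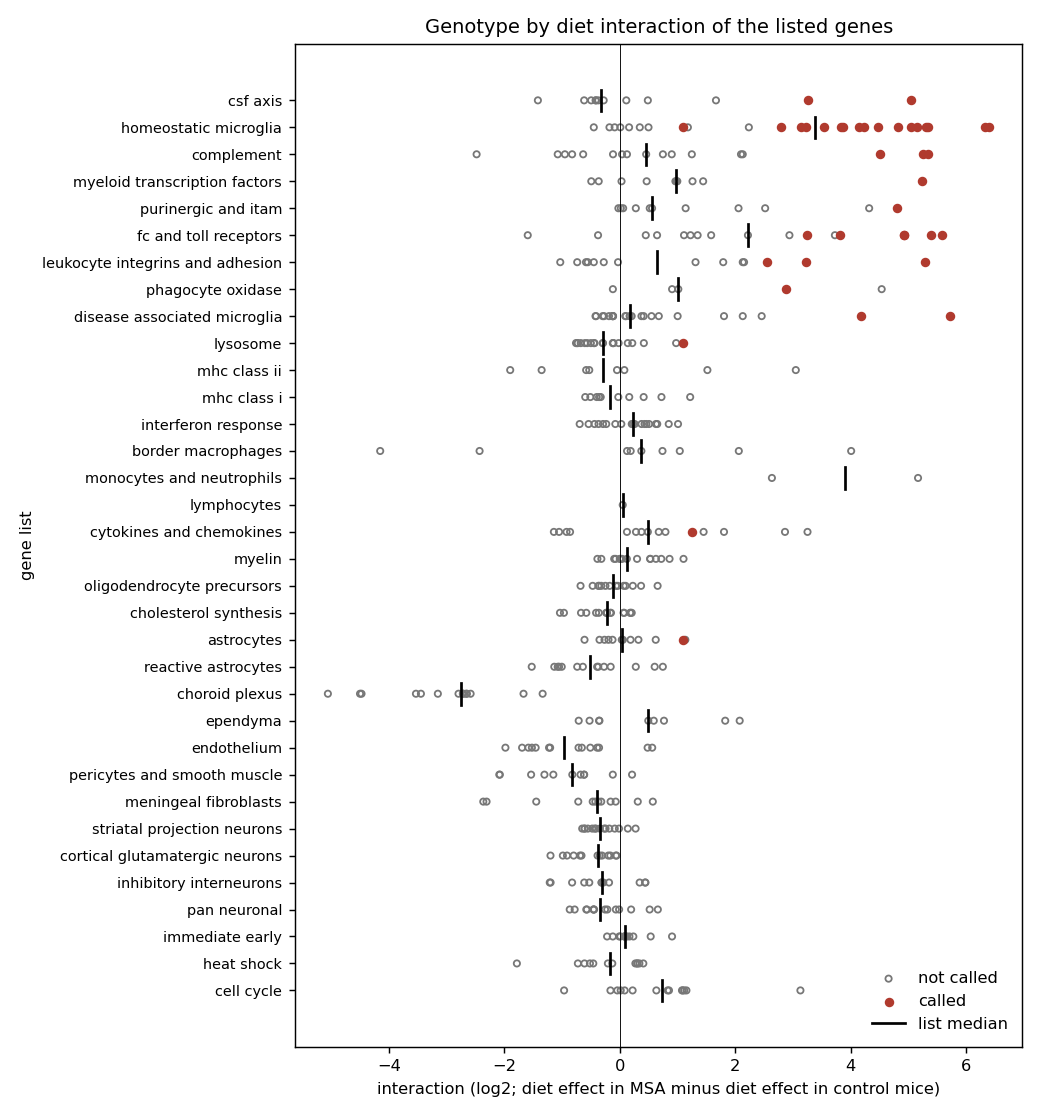
Interaction on the log2 scale for each tested member of 34 gene lists, with called genes filled in red and a black bar at the list's median. Red points gather in the lists of microglial and other immune genes, with 1 in astrocytes; the choroid plexus list lies left of 0 with no called gene, and the border macrophage list spreads around 0 with none.

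The listed genes of the other brain cell types gave 1 call among them. Eng and Cd93, which were called lower and are described below, stood in none of the lists. None of 15 myelin genes was called (median 0.12); Mbp, which encodes myelin basic protein, had 0.53 ± 0.32 (adjusted p = 0.428). No gene was called among 14 oligodendrocyte precursor, 15 striatal projection neuron, 13 cortical glutamatergic neuron, 12 inhibitory interneuron, 14 pan-neuronal, 16 cholesterol synthesis and 12 heat shock genes, with medians between -0.39 and -0.12. Of 12 astrocyte genes Gjb6, which encodes connexin 30, was called. Among 14 reactive astrocyte genes none was called (median -0.52), while 5 were higher in MSA mice on placebo, such as Gfap by 1.17 (adjusted p = 0.0395).

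The choroid plexus list moved furthest below 0. All 14 of its genes had negative interactions, from -5.06 to -1.34 with a median of -2.76, and none was called. Its summed level was 3327 to 8541 CPM in MSA corpus callosum placebo libraries, 427 to 487 CPM in MSA corpus callosum PLX5622 libraries, and 1526 to 1577 CPM in control corpus callosum PLX5622 libraries, against 263 to 366 CPM in the control placebo libraries. One MSA striatum placebo library had 4103 CPM while the other two had 69.8 and 483 CPM. The endothelial and pericyte lists had medians of -0.96 and -0.82, with no call.

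A second pattern concerned 5 of the 57 genes, which rose with PLX5622 in MSA mice: Zfand1, Tsc22d3, Casp8ap2, Smox and Gjb6. Zfand1, which encodes a zinc finger protein of stress granule clearance (mm10 chr3:10339956-10351317, minus strand), was the clearest. Its control libraries ran from 2.93 to 11.1 CPM on placebo (median 4.00) and from 0.148 to 2.33 CPM on PLX5622 (median 0.688). Its MSA libraries ran from 0.268 to 1.28 CPM on placebo (median 0.652) and from 1.25 to 8.08 CPM on PLX5622 (median 6.24). Control placebo and MSA PLX5622 libraries were thus high and the other groups low, but 1 MSA cortex PLX5622 library, at 1.25 CPM, lay below 1 control cortex PLX5622 library, at 2.33 CPM. Its diet change was 3.14 in MSA mice (adjusted p = 0.000253) and -2.31 in control mice (adjusted p = 0.00218), with an interaction of 5.45 ± 0.65 (adjusted p = 7.35e-06). On placebo its MSA minus control difference was -3.01 (adjusted p = 0.000902). Sorted control microglia held 2.40 CPM of Zfand1, below the placebo bulk level.

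Tsc22d3, which encodes the glucocorticoid-induced leucine zipper, had 102 to 254 CPM in control placebo libraries and 60.9 to 248 CPM in control PLX5622 libraries, against 43.9 to 104 CPM in MSA placebo and 130 to 239 CPM in MSA PLX5622 libraries. The MSA placebo group was the low one, and its interaction was 1.59 ± 0.35 (adjusted p = 0.0372). Gjb6 had medians of 60.8 and 47.9 CPM in control mice on placebo and PLX5622, and of 46.4 CPM (highest 58.8) and 75.2 CPM (lowest 62.2) in MSA mice. In each region its MSA PLX5622 libraries lay above its MSA placebo libraries, and its interaction was 1.10 ± 0.24 (adjusted p = 0.0317). For Casp8ap2 and Smox, which encode a caspase-8 binding protein and spermine oxidase, the interactions were 1.17 ± 0.24 and 0.81 ± 0.18 (adjusted p = 0.0152 and 0.0288). Among the 5, Zfand1 and Casp8ap2 stayed called in all 30 leave-one-out fits, Smox in 17, Gjb6 in 15 and Tsc22d3 in 10. Casp8ap2, Smox, Gjb6 and Tsc22d3 lost the call in each fit that left out a region, and Zfand1 kept it. Tsc22d3, Casp8ap2 and Smox were singled out after their values were seen.

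**Figure D5:**
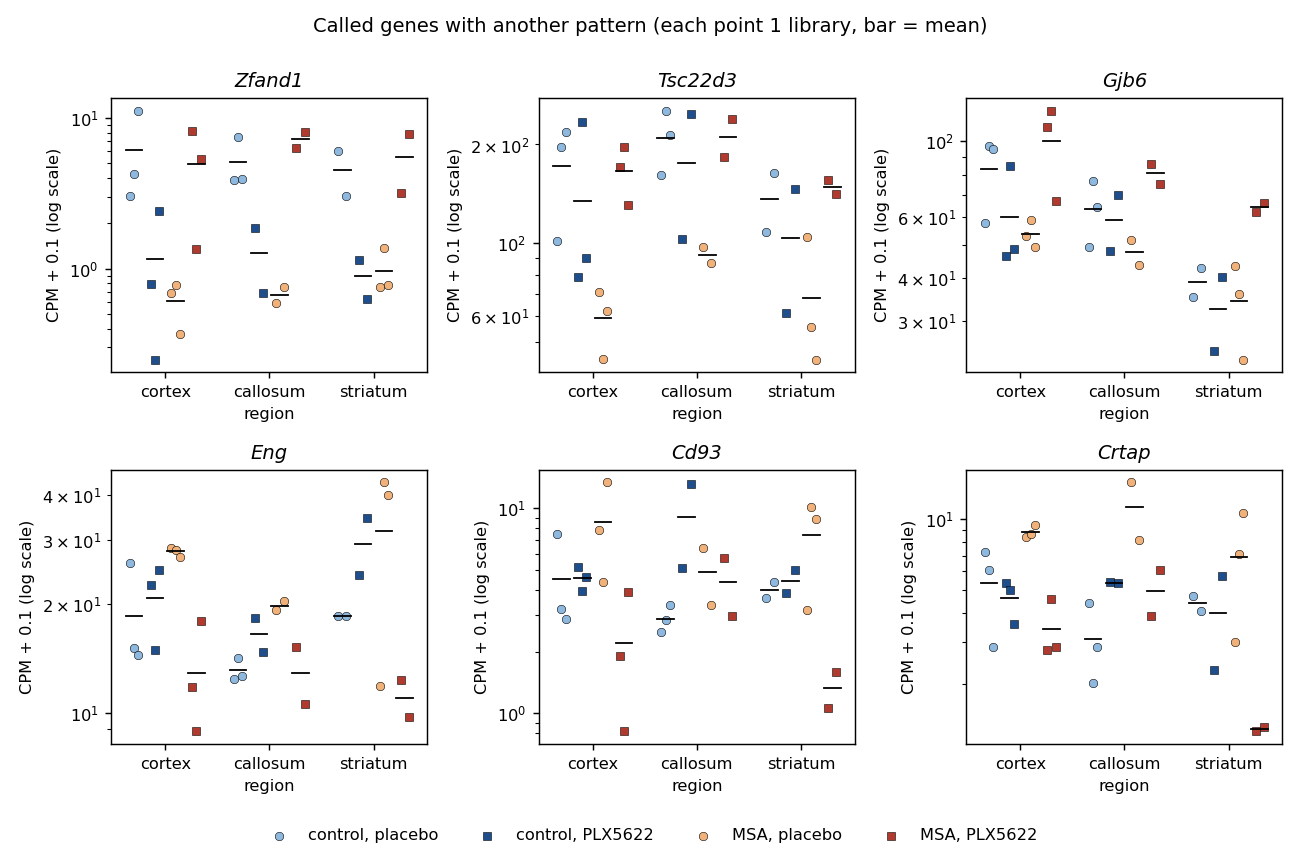
CPM plus 0.1 on a log axis for 3 genes called higher that rose with PLX5622 in MSA mice (upper row) and 3 called lower (lower row), by region, with 1 point per library and a bar at the group mean. MSA placebo libraries (orange circles) lie below control placebo libraries on average in every upper panel, while in the lower row they have the highest group mean except for Cd93 in corpus callosum.

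The 4 genes called lower had the opposite order, with MSA placebo high. Eng, the endothelial TGF-β co-receptor endoglin, ran from 12.3 to 25.8 CPM in control placebo, 14.6 to 34.5 CPM in control PLX5622, 11.7 to 43.4 CPM in MSA placebo and 8.76 to 17.9 CPM in MSA PLX5622 libraries. The groups overlapped: 1 MSA striatum placebo library, at 11.7 CPM, lay far below the others, at 43.4 and 40.0 CPM. Its interaction was -1.53 ± 0.32 (adjusted p = 0.0217), with diet changes of -1.14 in MSA mice (adjusted p = 0.00779) and 0.39 in control mice (adjusted p = 0.968). Cd93, a receptor of endothelium and myeloid cells, had -2.18 ± 0.48 (adjusted p = 0.0304), and Crtap, a collagen-modifying protein, -1.84 ± 0.41 (adjusted p = 0.0358).

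Dsp, which encodes desmoplakin of epithelial junctions, had -5.05 ± 1.10 (adjusted p = 0.0293) and was singled out after its values were seen. Its highest levels were 7.79 and 16.8 CPM in the MSA corpus callosum placebo libraries and 5.27 CPM in 1 MSA striatum placebo library. Those are the 3 libraries with the highest choroid plexus sums, and the part of choroid plexus RNA in this result was not tested. None of these 4 calls held in all leave-one-out fits: Eng was called in 25 of 30, Dsp in 20, Cd93 in 16 and Crtap in 12. The count of 4 fell to 0 without control striatum placebo 1 or control striatum PLX5622 2. It was 1 without MSA corpus callosum placebo 1, MSA corpus callosum PLX5622 3, MSA striatum placebo 3, MSA striatum PLX5622 2 or MSA striatum PLX5622 3. It was 2 without control cortex placebo 3, MSA cortex PLX5622 1, control corpus callosum placebo 3, control striatum placebo 2 or MSA striatum placebo 2. It rose to 9 without control corpus callosum PLX5622 2, to 16 without MSA cortex PLX5622 3, to 19 without MSA striatum placebo 1 and to 30 without control cortex placebo 1.

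Calls of higher interaction were steadier. Leaving out each of the 30 libraries in turn gave 44 to 78 such genes, and 43 of the 57 stayed called in every one of these fits. In addition, 25 of the 57 stayed called in all 12 other settings, including each fit with 1 region left out. Those 25 comprised Cx3cr1, P2ry12, P2ry13, Tmem119, Csf1r, the 3 C1q genes, Tyrobp, Trem2, Fcrls, Ly86, Fcgr3, Fcer1g, Ctss, Laptm5, Selplg, Gpr34, Bin2, Mpeg1, Cd53, Vav1, Arhgap45, Ccl6 and Zfand1. Without the 2 control striatum libraries whose treatment tag goes against their title, 38 genes were called higher and 0 lower.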

How the data were processed

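Raw counts per gene came from 30 bulk and 6 sorted libraries of polyA RNA. The authors deposited the count table; STAR, HOMER and DESeq2 and the mm10 build are named in the submitters' processing notes, while those notes state no version, setting or strandedness. Libraries held 4360339 to 28622744 assigned counts, which limits precision for genes of few counts. edgeR 4.0.16 (R 4.3.3) was fitted to all 30 bulk libraries with TMM scaling, a minimum count of 10 in its expression filter (16080 of 24940 genes), region, genotype and diet within region, and 1 common interaction; the fit left 20 residual degrees of freedom. Regional values came from a model of 12 group means. CPM used the assigned counts of each library, without TMM scaling. The mean log2 CPM and the deviations of same-numbered samples used TMM-scaled library sizes. The script was tested on simulated data. Members, lists and tests were chosen with earlier results of these data known, so no list was tested as a set. Named genes were fixed core genes, the 8 higher and 8 lower of largest called interaction at a mean log2 CPM of at least 1, up to 4 members of smallest p of each list with a call, the CSF list, and the first 2 members of other lists. Alternatives used DESeq2 1.42.0 and limma 3.58.1. Replicates differed: over 24 pairs, chi-square per degree of freedom was 7.95 to 142, so none was a repeat deposit. Some results are not reported here.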

Additional observations from a re-analysis of the deposited data

Results flagged for a closer look

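The diet effect differed between the genotypes, by the test of the difference itself, for 57 genes called higher and 4 called lower. Outside the microglial genes, the same test called Zfand1 at 5.45, Gjb6 at 1.10 and Tsc22d3 at 1.59, whose levels in sorted control microglia were below those in placebo bulk tissue. Zfand1 stayed called in all 30 fits that left out 1 library each, Gjb6 in 15 and Tsc22d3 in 10, and of 12 other settings they stayed called in 12, 6 and 5.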

How the results depend on the processing

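Deviations of same-numbered samples correlated from -0.364 to 0.440 over 25 pairs across regions (median 0.0957, with 12 over 0.1, among them every pair of MSA PLX5622 3 and of control placebo 2). Same-numbered samples of other groups in the same region had a median of -8.96e-05 over 38 pairs, with 9 over 0.1. Not every pair across regions was over 0.1, so the numbers were not taken as pairing. That rule cannot show that the regions came from different mice. Whether some regions share a mouse is not known, and libraries of the same mouse would not be independent in the main fit. With the number as a replicate block, 53 genes were called higher and 6 lower, against 57 and 4, and 51 of the 61 calls were kept; PLX5622 was called for 324 genes in MSA mice against 411 and for 218 in control mice against 227. A random block in limma voom gave 40 higher, 12 lower and 64 for genotype on placebo (103 in the main fit), and voom without it 48 higher and 18 lower. DESeq2 called 102 higher and 43 lower, 909 for diet in MSA mice, 241 for genotype on placebo and 273 for genotype on PLX5622 (162 in the main fit). Without a low-count filter 7 were lower. Leaving out cortex gave 33 higher, 1 lower and 215 for diet in MSA mice. Leaving out corpus callosum gave 31, 0 and 90, with 4 for genotype on placebo and 82 for genotype on PLX5622. Leaving out striatum gave 33, 1 and 36, with 15 and 100. Fewer samples entered these fits. Without control striatum PLX5622 there were 0 lower and 83 for genotype on PLX5622, and the regional test could not be fitted. Without libraries under 70% assigned there were 0 lower and 62 for genotype on placebo. The cause of the other shifts was not tested.

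Leaving out 1 library at a time gave 44 to 78 higher, 0 to 30 lower, 206 to 235 for diet in control mice, 167 to 680 for diet in MSA mice, 34 to 161 for genotype on placebo and 133 to 172 for genotype on PLX5622, and 0 for the regional test. For diet in MSA mice the count rose over 1.5 times without control cortex placebo 3, MSA cortex PLX5622 3 (680) or MSA striatum placebo 1, and fell as far without MSA cortex PLX5622 1 or 2, MSA corpus callosum placebo 1 (167) or 2, MSA corpus callosum PLX5622 1 or 3, and MSA striatum placebo 2 or 3 and PLX5622 2 or 3. For genotype on placebo it rose as far without control cortex placebo 1 (161), and fell without MSA cortex placebo 3, control corpus callosum placebo 3, MSA corpus callosum placebo 1 (34) or 2, control striatum placebo 1 or 2 and MSA striatum placebo 3. Over the 84 named genes and all settings, 3336 values kept their side of the threshold, 181 lost the call and 8 gained it. Of the values called in the main fit or in that setting, 0 changed sign. Changes of sign among values called in neither were not counted. A lone remaining library was assumed to vary like the other groups. Depth limits the fold changes of genes near 0 in control PLX5622 libraries: 2 of the 57 had no counts there and 8 had 1 to 3.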
